A study of Homo sapiens with 18 samples.

Results

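The interferon regulatory factor (IRF) genes examined here are IRF1, IRF2, IRF3, IRF4, IRF5, IRF7, IRF8 and IRF9, 8 of the 20098 protein-coding genes on chromosomes 1 to 22 and X. They were taken by gene name as the family of IRF7, a gene already known to lie wholly within a peak of linker histone H1.2, and the question was whether the others share that coverage. The cells were HL-60/S4, an established human myeloid leukemia line, undifferentiated and untreated, and peaks were mapped for the linker histone isotypes H1.2 and H1.5. For xChIP-seq, formaldehyde-fixed chromatin was sheared by sonication and then exposed to rabbit polyclonal anti-H1.2 or anti-H1.5. For xxChIP-seq, the same antibodies first bound inside fixed, permeabilized cells and were held there by another fixation, and shearing came last. Each of the 4 combinations had 3 replicates, and the deposited values are 1 merged list of peak positions per combination on hg19. The lists give neither read numbers nor peak heights, so the depth is unknown, and no spread between replicates can be computed. The values below therefore describe 4 merged lists, with no test. Peak positions alone cannot check the cell line against marker genes, and no expression was measured in these files.

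IRF proteins are transcription factors that share an N-terminal DNA-binding domain and recognise GAAA-rich interferon-stimulated response elements (ISREs). IRF3 and IRF7 switch on type I interferon genes after a virus is sensed, IRF9 carries the interferon signal to its target genes, and IRF1 and IRF2 act on overlapping targets as activator and antagonist. IRF4, IRF5 and IRF8 are used mainly in blood and immune cells, where IRF8 guides monocyte and dendritic cell development.

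Full coverage by xChIP H1.2 was found at IRF7 and at none of the other 7 genes. A gene body, from gene start to gene end, was fully covered in that list for 10.2% of all protein-coding genes, and at least 50% of it for 31.0%. Because the value of IRF7 prompted the comparison, only the other 7 genes bear on it, and 0 of those 7 reached either level. The other gene bodies ranged from no covered base at IRF3 and IRF8 to 34.6% at IRF2, and the median over the 8 genes was 18.0%, below the 26.3% median of all protein-coding genes. Any xChIP H1.2 peak was present in 6 of the 8 bodies, against 82.9% of all genes, and IRF7 was among the 6 by the way it was chosen. The highest body coverage was 14.2% in xChIP H1.5 (IRF4), 18.6% in xxChIP H1.2 (IRF2) and 26.1% in xxChIP H1.5 (IRF4). In these 3 lists a peak lay in 5, 3 and 4 of the 8 bodies, against 70.3%, 60.6% and 58.0% of all genes. None of the 8 was covered to 50% there, where the shares of all genes were 4.88%, 2.20% and 1.80%, and none was covered in full, against 1.07%, 0.647% and 0.567%. Peaks of both protocols lay in 4 of the 8 bodies (IRF1, IRF2, IRF4 and IRF9), against 65.1%. These counts use the annotated gene spans. Over the Ensembl canonical transcripts, IRF1 held no xxChIP peak and IRF9 no xChIP H1.5 peak. The genes lie on 8 different chromosomes, so no peak is shared between members.

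**Figure D1:**
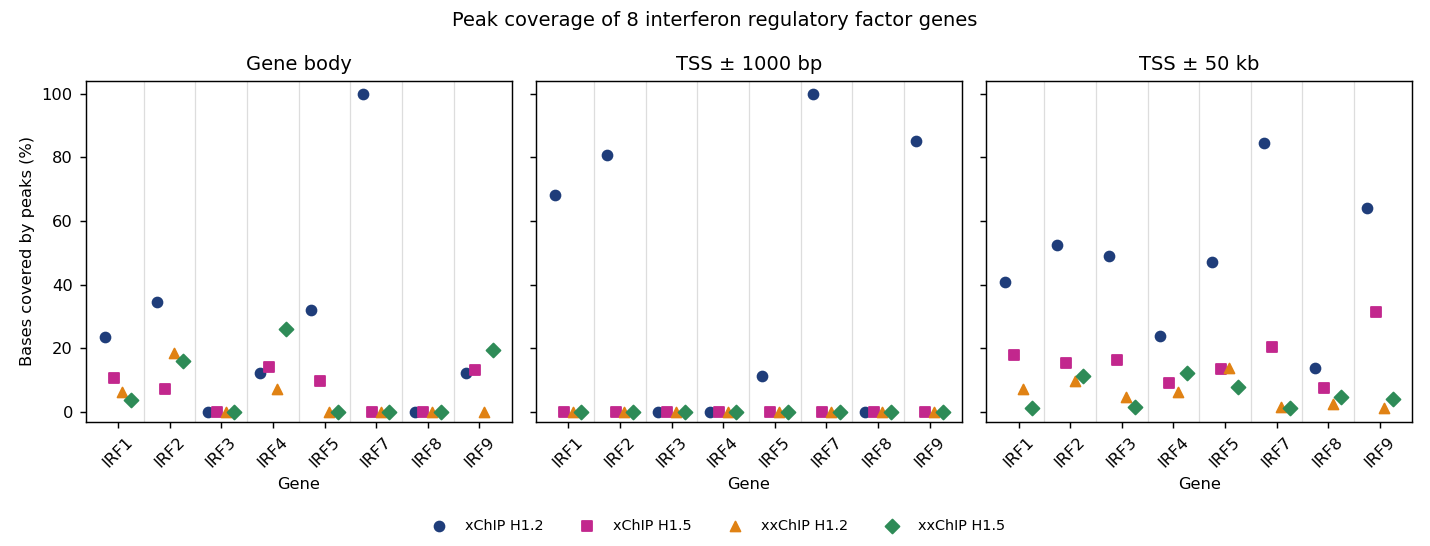
Percent of bases covered by merged peaks (vertical axis) for each of the 8 genes (horizontal axis) in the gene body, at TSS ± 1000 bp and in TSS ± 50 kb. Each symbol is 1 merged list, with no error bars because the lists carry no replicates. IRF7 alone stands at 100% in the gene body, and the promoter panel holds values above 0 for xChIP H1.2 only.

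At the promoter, here the transcription start site (TSS, the annotated 5′ end of the gene) ± 1000 bp, peaks came from xChIP H1.2 alone. Such a peak overlapped the promoter in 5 of 8 genes (IRF1, IRF2, IRF5, IRF7 and IRF9), against 48.2% of all genes. The full coverage for which IRF7 was chosen fixed its overlap in advance, so only the other genes bear on this count. Genes of similar GC, within 2 percentage points in TSS ± 50 kb, had an xChIP H1.2 promoter peak more often than all genes. For each member their share was above 48.2%, from 49.8% (IRF2) to 70% (IRF7). No IRF promoter touched a peak of xChIP H1.5, which reached 21.6% of all promoters, or of either xxChIP list, with 8.78% for H1.2 and 7.92% for H1.5. Among genes of similar GC, the xChIP H1.5 share ran from 21.9% (IRF2) to 25.8% (IRF3). The xxChIP shares ran from 3% (IRF3) to 9.03% (IRF2) for H1.2, and from 1.8% (IRF7) to 8.16% (IRF2) for H1.5. The promoters of IRF3, IRF4 and IRF8 had no peak of any list, as did 37.9% of all promoters. From the start of the Ensembl canonical transcript instead, a definition added after the values were seen, the xChIP H1.2 count was 3 of 8, because the promoters of IRF1 and IRF5 then lay outside the peaks.

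The 3 promoter sequences shown are an example fully inside an xChIP H1.2 peak (IRF9) and 2 fully outside every list (IRF1 and IRF4). They differ in CpG number, but IRF7 and IRF2 show the reverse pairing. In xChIP H1.2 the CpG-rich TSS ± 1000 bp of IRF7 (133 CpG) was covered to 100% and that of IRF2 (144 CpG) to 80.7%. The TSS ± 1000 bp of IRF8 holds 125 CpG and had no peak, the same pairing as the printed IRF1 and IRF4. The 2 RefSeq entries of IRF8, with 2 and 4 CpG, were also outside every list. They overlap each other and start 3714 and 3899 bp downstream of its TSS. Of the 4 entries of IRF5, those with 18 and 30 CpG lay outside every list. Those with 5 and 3 CpG had 100% and 36.8% of their bases in xChIP H1.2 peaks, and start 3213 and 3811 bp downstream of its TSS. The printed promoters are RefSeq sequences (table build GRCh38.p14) of the 250 bases before the start, printed 5′ to 3′ on the strand of the gene with each CpG dinucleotide in capitals, and each has 1 exact match on GRCh37, the assembly of hg19. IRF9 (chr14:24630224-24630473, plus strand) holds 4 CpG. IRF1 (chr5:131826466-131826715, minus strand, before the canonical start) holds 29, and IRF4 (chr6:391502-391751, plus strand) holds 28.
IRF9: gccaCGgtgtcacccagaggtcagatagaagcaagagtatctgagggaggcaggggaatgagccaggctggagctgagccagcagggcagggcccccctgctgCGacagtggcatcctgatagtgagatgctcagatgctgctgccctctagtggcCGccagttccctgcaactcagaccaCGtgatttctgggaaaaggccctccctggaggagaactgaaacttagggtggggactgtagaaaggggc
IRF1: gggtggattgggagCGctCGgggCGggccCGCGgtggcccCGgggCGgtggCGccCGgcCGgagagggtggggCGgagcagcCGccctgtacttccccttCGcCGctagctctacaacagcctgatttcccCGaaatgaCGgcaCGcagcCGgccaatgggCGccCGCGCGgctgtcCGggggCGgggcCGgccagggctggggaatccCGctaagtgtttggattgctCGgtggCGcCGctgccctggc
IRF4: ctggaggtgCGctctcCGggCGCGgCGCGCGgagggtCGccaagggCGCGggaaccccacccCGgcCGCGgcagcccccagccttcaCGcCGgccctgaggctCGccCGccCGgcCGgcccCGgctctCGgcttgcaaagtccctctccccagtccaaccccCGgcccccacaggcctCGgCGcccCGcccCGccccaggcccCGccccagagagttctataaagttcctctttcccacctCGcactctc

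The median of 35116 RefSeq promoters of this length is 11 CpG. Of the 8 genes, 5 matched the promoter table, with 9 entries, and IRF2, IRF3 and IRF7 had none. The 4 motifs were searched on both strands. The GC box GGGCGG, found in 42.6% of all promoters, occurred 5 times before IRF1 and 4 times before IRF4, and not before IRF9. The interferon gamma-activated site TTCNNNGAA, found in 6.57%, matched once before IRF1 and once before IRF9. The ISRE core, GAAA and GAAA with any 2 bases between them (3.02%), and the PU.1 core GAGGAAG (11.2%) matched in none of the 9 entries.

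IRF7 and IRF3, the pair that starts the type I interferon response, differed from full coverage by xChIP H1.2 to none. IRF7 (ENSG00000185507, chr11:612553-615983, minus strand, 3431 bp) was covered to 100% by xChIP H1.2 over its body and promoter and to 84.6% in TSS ± 50 kb. Its body and promoter held no peak of the other 3 lists, and its TSS ± 50 kb was covered to 20.4% by xChIP H1.5 and, in xxChIP, to 1.56% (H1.2) and 1.33% (H1.5). Local GC, the GC content of TSS ± 50 kb, was 57.4%, the highest of the 8 genes. Of the 777 protein-coding genes within 2 percentage points of that GC, 21.9% also had a fully covered body in xChIP H1.2. Among the 214 of them that were also within 2-fold of its length, 35.5% did. Full coverage was therefore more frequent among genes of the same GC and length than among all genes. In TSS ± 50 kb, the coverage of IRF7 by xChIP H1.2 was above that of 86.7% of the 777 genes, whose median was 60.6%. The peak for which IRF7 was chosen lies wholly inside this window, so its high place is in part set by that choice.

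A single xChIP H1.2 peak of 54782 bp (chr11:580705-635486) held all of IRF7. Only 1370 of the 142926 peaks in the list, 0.959%, were as long, and its length was 23.5 times the median. The same peak covered all of CDHR5 and SCT, the gene of the hormone secretin, and 88.2% of PHRF1, so the full coverage of IRF7 was that of a block of neighbouring genes. Over 12 coverage values (4 lists, 3 windows), the genes most like IRF7 among the 20044 lying over 1 Mb away were TRPT1, NUDT22 and DNAJC4, with mean absolute differences of 0.230, 0.256 and 0.326 percentage points. These 3 are neighbours on chromosome 11 that lay in 1 peak of 102086 bp, so they are not independent of each other. The closest family member was IRF9 at 14.1 points, and IRF4 was the farthest at 26.9 points.

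IRF3 (ENSG00000126456, chr19:50162826-50169132, minus strand, 6307 bp), which is made constitutively and activated by phosphorylation, had no peak of any list over its body or promoter. Its surroundings were not empty. In TSS ± 50 kb, xChIP covered 49.2% with H1.2 and 16.4% with H1.5, and xxChIP covered 4.67% and 1.71%. The local GC, 55.4%, was close to that of IRF7. The stretch around its TSS without a peak of any list ran for 21825 bp (chr19:50152236-50174060), which was matched or exceeded at 3.03% of all genes and at 1.24% of its 1368 genes of similar GC. A body without any peak was found for 12.9% of the 534 genes of similar GC and length, so the empty body was less unusual than the length of the empty stretch. Within 50 kb lay 6 other protein-coding TSS.

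**Figure D2:**
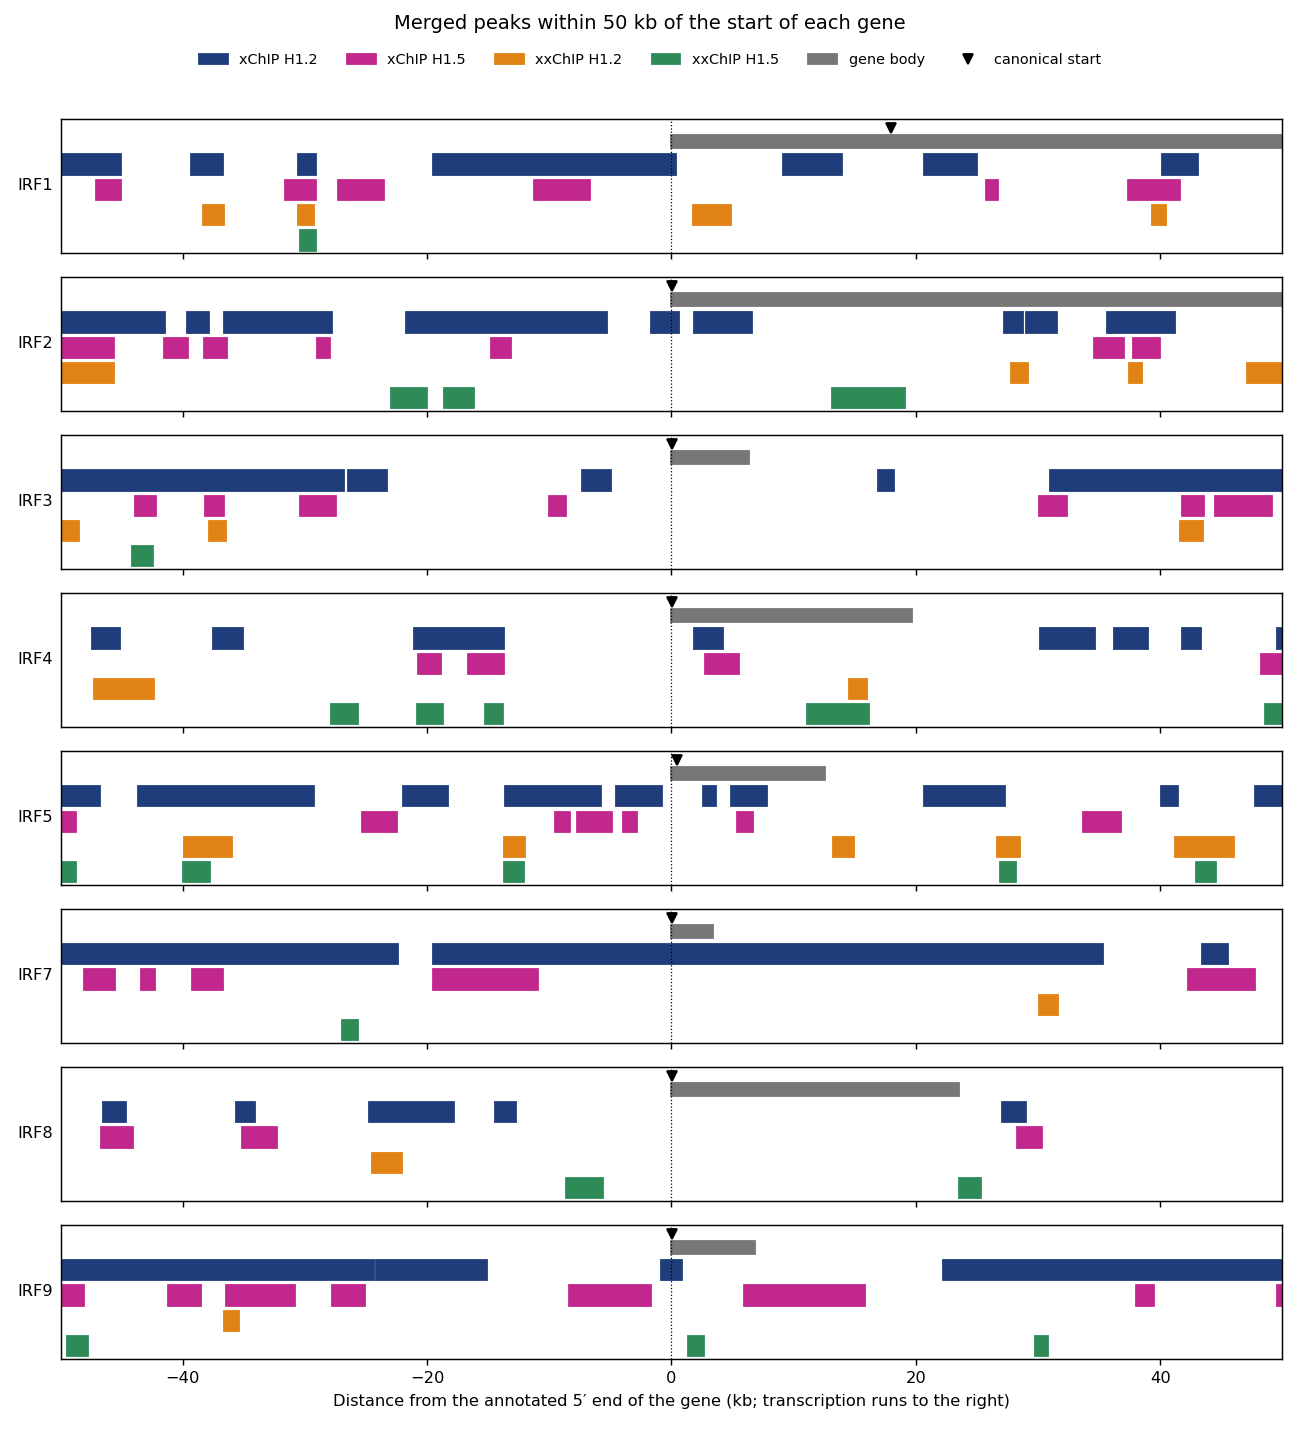
Merged peaks within 50 kb of the annotated 5′ end of each gene, with distance in kb on the horizontal axis and transcription running to the right. Each coloured row is 1 list, the grey bar is the gene body and the triangle is the canonical start. One long xChIP H1.2 peak spans IRF7, and no list has a peak over the bodies of IRF3 and IRF8.

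IRF1 and IRF2, activator and antagonist on shared sites, had partly covered bodies with peaks of all 4 lists. IRF1 (ENSG00000125347, chr5:131776132-131844411, minus strand, 68280 bp), an activator induced by interferon gamma, had 23.6% of its body in xChIP peaks of H1.2 and 10.8% in those of H1.5, and 6.25% and 3.85% in the xxChIP peaks of the same isotypes. Its annotated 5′ end lies 17946 bp upstream of the canonical start. The promoter at that 5′ end was covered to 68.3% by the end of a 19907 bp xChIP H1.2 peak (chr5:131844046-131863952), which also lies in ENSG00000283782, a gene that contains IRF1. The promoter at the canonical start, whose upstream sequence is printed above, had no peak of any list, and the nearest xChIP H1.2 peak was 2719 bp away. The choice of start thus set the promoter value of IRF1. The canonical body held 47.7% coverage in xChIP H1.2 against 11% for H1.5, and no xxChIP peak. In TSS ± 50 kb, coverage by xxChIP H1.5 was 1.33%, above only 10.8% of the 3990 genes of similar GC. This value also depends on the start, because within 50 kb of the canonical start the coverage was 3.96%. The place of that value among genes of similar GC is not given here.

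IRF2 (ENSG00000168310, chr4:185306856-185395712, minus strand, 88857 bp) had the largest body coverage after IRF7 in xChIP H1.2, 34.6%, beside 7.30% for H1.5 by the same protocol. The xxChIP peaks covered 18.6% (H1.2) and 16.2% (H1.5). Both xxChIP values were in the upper part of its 4696 genes of similar GC, of which 16.9% and 17.0% had as much or more. Its promoter was covered to 80.7% by an xChIP H1.2 peak of 2326 bp over the TSS (chr4:185395098-185397423) that reached no other protein-coding gene. The xChIP H1.2 peaks took 36.8% of its intronic and 7.90% of its exonic bases.

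IRF9 (ENSG00000213928, chr14:24630443-24637252, plus strand, 6810 bp), the DNA-binding subunit of the interferon-activated complex ISGF3, was covered by xChIP H1.2 at its start rather than over its length. In that list 85.2% of its promoter and 12.4% of its body were covered, from 1 peak of 1705 bp (chr14:24629581-24631285) that also reached RNF31, a ubiquitin ligase subunit, and ENSG00000259529. For H1.5 the body was covered to 13.3% in xChIP and to 19.4% in xxChIP, and it held no xxChIP peak of H1.2. The xChIP H1.5 peak (chr14:24636348-24646257) begins beyond the end of the canonical transcript (24635774) and runs past the gene. The canonical body thus held no xChIP H1.5 peak. These body peaks of different lists did not share a base. As much xxChIP H1.5 body coverage was found in 5.55% of the 3007 genes of similar GC. In TSS ± 50 kb, where 14 other protein-coding genes start, xChIP coverage was 64.2% for H1.2 and 31.4% for H1.5, and xxChIP coverage 1.25% and 4.10%. The xChIP H1.5 value was above that of 83.4% of genes of similar GC.

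IRF8 and IRF4, the closely related factors of blood cells that bind DNA with PU.1, lay in the surroundings least covered by xChIP H1.2. IRF8 (ENSG00000140968, chr16:85932722-85956212, plus strand, 23491 bp) had no peak of any list over its body or promoter. The peak-free stretch around its TSS ran for 29134 bp (chr16:85927141-85956274) and held the whole gene. Such a stretch or a longer one was found at 1.19% of all genes and 0.908% of the 3526 genes of similar GC. A body without any peak was found for 0.947% of the 1478 genes of similar GC and length, against 8.97% of all genes, and 2 of the 8 IRF genes had one. In TSS ± 50 kb, H1.2 peaks covered 14.0% in xChIP and 2.41% in xxChIP, and H1.5 peaks 7.50% and 4.81%. The xChIP H1.2 value was above that of only 4.96% of its genes of similar GC, the lowest place in the family.

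IRF4 (ENSG00000137265, chr6:391739-411443, plus strand, 19705 bp), needed for plasma cells, had, like IRF9, more of its body covered in xxChIP H1.5 than in any other list. Its xChIP coverage was 12.4% for H1.2 and 14.2% for H1.5, and its xxChIP coverage 7.42% and 26.1%, the last from 1 peak of 5141 bp (chr6:402792-407932) inside the gene. As much xxChIP H1.5 coverage was found in 4.47% of the 3493 genes of similar GC. No base of the body was shared by a peak of xChIP and a peak of xxChIP. Around its TSS, 15528 bp (chr6:378016-393543) were free of peaks, a length reached at 6.27% of genes of similar GC. For TSS ± 50 kb the H1.2 values were 23.8% in xChIP and 6.30% in xxChIP, and the H1.5 values 9.31% and 12.3%.

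IRF5 (ENSG00000128604, chr7:128577511-128590092, plus strand, 12582 bp), which acts downstream of Toll-like receptors on inflammatory cytokine genes, was covered over its body by xChIP only, to 32.2% for H1.2 and 9.91% for H1.5. All of the xChIP H1.5 coverage lay within the xChIP H1.2 peaks. A body with an xChIP peak and no xxChIP peak was found for 2 of 8 members, IRF5 and IRF7, against 22.4% of all genes. Over its canonical transcript, IRF1 was also such a case. The xChIP peak of IRF7 was fixed by the way it was chosen, so only the other genes bear on this count. Among genes of similar GC the share ran from 15.1% (IRF2) to 57.4% (IRF7), and it was 32.4% for IRF5. The promoter was covered to 11.3% by xChIP H1.2, from a peak that ended 774 bp upstream of the TSS. Its TSS ± 50 kb held 47.2% (H1.2) and 13.7% (H1.5) coverage in xChIP, and 14.0% and 8.04% in xxChIP. The xxChIP H1.2 value was above that of 82.6% of its 3542 genes of similar GC.

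**Figure D3:**
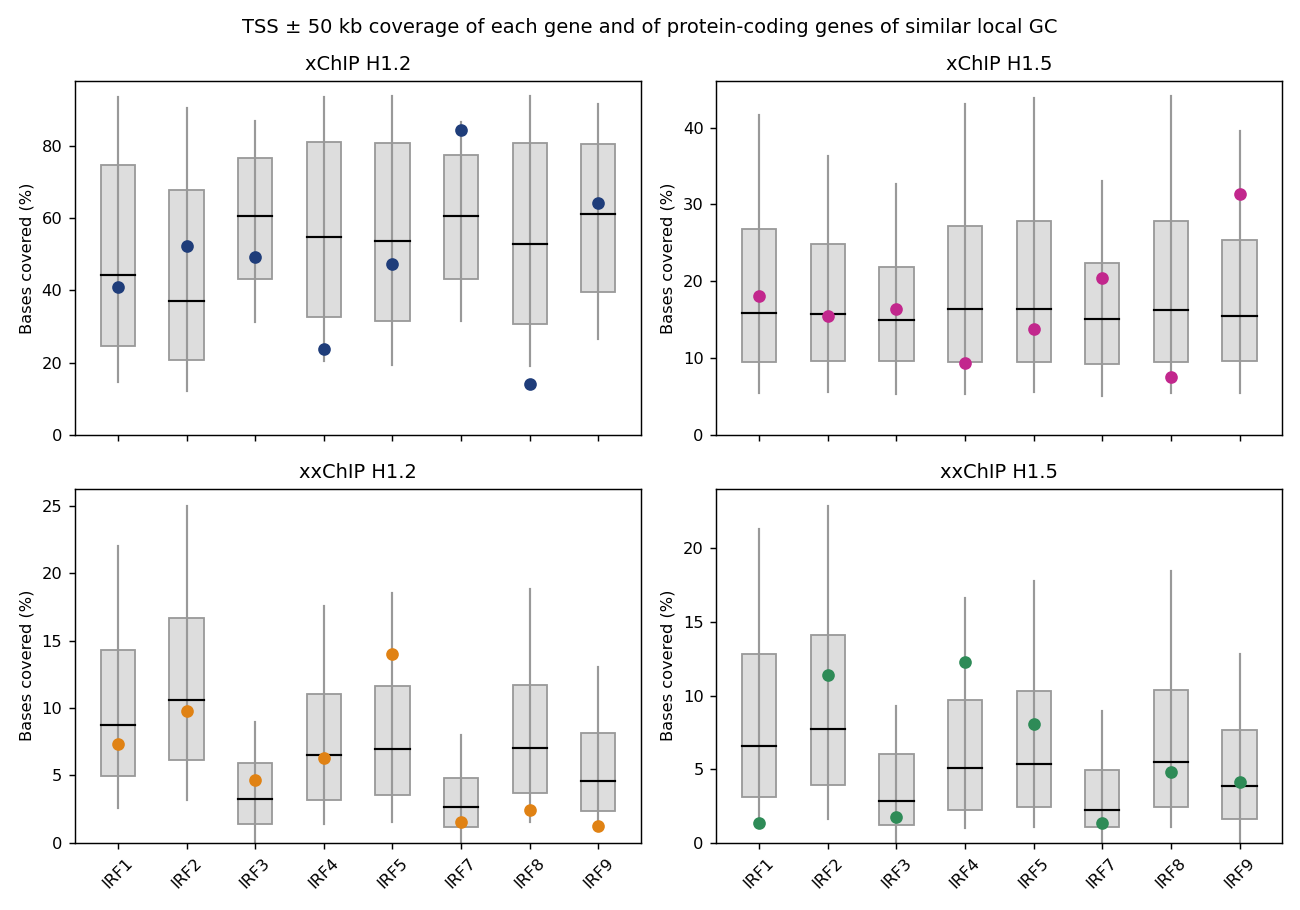
Percent of bases of TSS ± 50 kb covered by each list, 1 panel per list with its own vertical scale. Coloured points are the 8 genes, and for the genes of similar local GC the box gives the quartiles, the black line the median and the grey line the 10th to 90th percentile. IRF7 lies near the upper end and IRF8 below the lower end of the grey line in xChIP H1.2. IRF7 was chosen for its coverage in that list.

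Set against genes of similar local GC, every list had members above the median and members at or below it. Body coverage was above that median for 2 of 8 members in xChIP H1.2 and 3 in xChIP H1.5, and in xxChIP for 3 (H1.2) and 4 (H1.5), where the shares of all genes above their own median were 49.9%, 49.8%, 46.0% and 45.6%. In TSS ± 50 kb the counts were 3, 4, 2 and 4, against 49.8%, 50.0%, 50.0% and 49.9%. In xChIP H1.2 the members above were IRF2 and IRF7 for the body, and IRF2, IRF7 and IRF9 for TSS ± 50 kb. IRF7 was chosen for its coverage in that list, so only the other genes bear on these xChIP H1.2 counts. The order by xChIP H1.2 coverage in TSS ± 50 kb was IRF7 (84.6%), IRF9 (64.2%), IRF2 (52.4%), IRF3 (49.2%), IRF5 (47.2%), IRF1 (41.0%), IRF4 (23.8%) and IRF8 (14.0%). With no replicate lists, it cannot be said which neighbours in this order differ.

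Between protocols, TSS ± 50 kb was covered more by xChIP H1.2 than by xxChIP H1.2 at 8 of 8 members, against 78.6% of all genes, and more by xChIP H1.5 than by xxChIP H1.5 at 7 of 8, against 69.7%. IRF4 was the exception in H1.5. Between isotypes, xChIP H1.2 exceeded xChIP H1.5 there at 8 of 8, against 84.5%, and xxChIP H1.2 exceeded xxChIP H1.5 at 4 of 8, against 60.8%. Over the gene body xChIP H1.2 exceeded xxChIP H1.2 at 6 of 8 members (66.9% of all genes), the 2 empty genes being equal at 0. There xChIP H1.2 exceeded xChIP H1.5 at 4 of 8 (69.2%), or at 5 of 8 with the canonical transcript. IRF7, chosen for its xChIP H1.2 coverage, is in each of these xChIP H1.2 counts and does not bear on them. Body coverage was higher in xChIP H1.5 than in xxChIP H1.5 at 2 of 8 (50.2%) and higher in xxChIP H1.2 than in xxChIP H1.5 at 2 of 8 (41.6%). The xChIP lists cover 26.4% (H1.2) and 16.3% (H1.5) of the known sequence and the xxChIP lists 20.2% and 17.2%, and that difference is part of every such comparison.

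The TSS of the 8 genes lay nearer to xChIP H1.2 peaks, by the median, than to peaks of any other list. The TSS lay inside an xChIP H1.2 peak at 4 of 8 members (IRF1, IRF2, IRF7 and IRF9), against 36.6% of all genes, and inside no peak of the other lists, where the shares were 10.2% (xChIP H1.5) and, for xxChIP, 3.66% (H1.2) and 3.63% (H1.5). IRF7 was inside by the way it was chosen, so only the other genes bear on the xChIP H1.2 count. The median distance over the 8 genes was 387 bp for H1.2 and 7654 bp for H1.5 in xChIP, and 24928 and 12596 bp in xxChIP. The xChIP H1.2 median includes the 0 bp of IRF7, which can only lower it. The medians over all genes were 1143, 4480, 7249 and 8576 bp in the same order. Among genes of similar local GC, the xChIP H1.2 median was 0 bp for IRF3, IRF4, IRF5, IRF7 and IRF9. It was 71 bp for IRF8, 579 bp for IRF1 and 1014 bp for IRF2. IRF3, IRF4, IRF5 and IRF8 lay farther away than that median, IRF1 and IRF2 nearer, and IRF7 and IRF9 were at it. The same medians in xxChIP ran from 6655 to 19583 bp (H1.2) and from 8201 to 18880 bp (H1.5). From their canonical starts, IRF1 and IRF5 lay 2719 and 1244 bp from the nearest xChIP H1.2 peak, both beyond 1143 bp. The median of 387 bp and the count of TSS inside a peak thus depend on the start used. Distances from the canonical starts of all genes were not computed. The nearest xxChIP H1.2 peak was 1785 bp away at IRF1 and 36462 bp away at IRF3, the ends of its range. From the canonical start of IRF1 it was 13066 bp away.

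**Figure D4:**
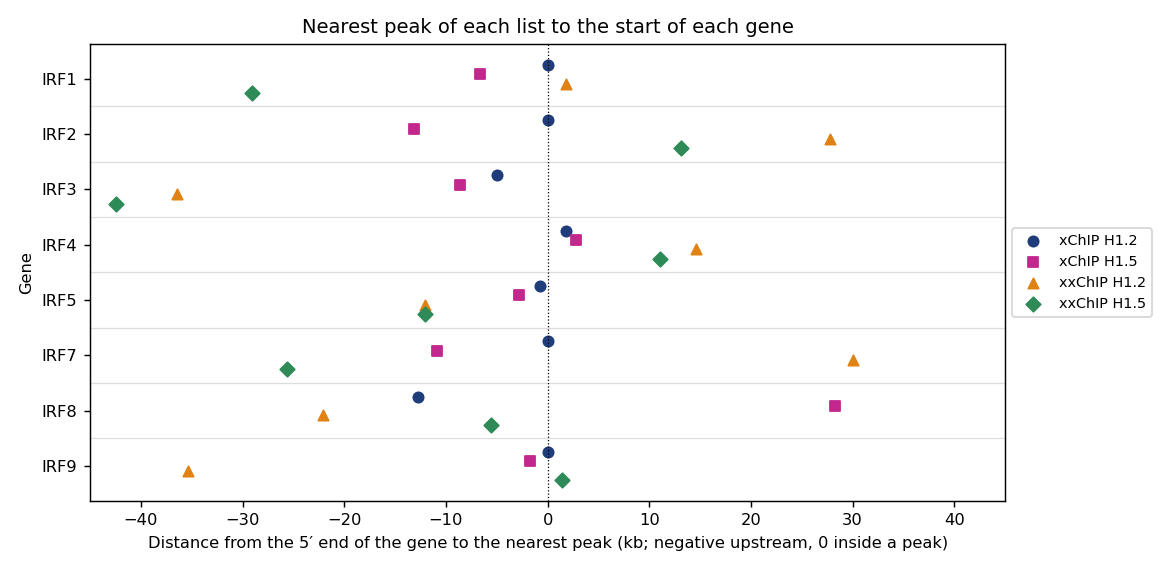
Distance in kb from the annotated 5′ end of each gene (vertical axis) to the nearest peak of each list (horizontal axis, negative upstream, 0 inside a peak). xChIP H1.2 lies at 0 for IRF1, IRF2, IRF7 and IRF9, while the xxChIP lists lie as far as 42.4 kb away at IRF3.

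Other genes of the interferon pathway also ranged from empty to fully covered bodies. Of 53 such genes, 29 had an xChIP H1.2 peak at the promoter, 21 had at least 50% of the body covered by xChIP H1.2 and 11 were fully covered, against the 48.2%, 31.0% and 10.2% of all genes given above. Promoter peaks of xChIP H1.5 were found in 14 of 53 (21.6% of all genes), and those of xxChIP in 7 for H1.2 (8.78%) and 3 for H1.5 (7.92%). Among 6 receptor genes, 4 had at least 50% of the body covered by xChIP H1.2, and the body values were 83.3% at IFNAR1 and 22% at IFNAR2, the chains of the type I interferon receptor, and 13.6% at IFNGR1. Several of the 53 genes are neighbours, among them IFNAR1 and IFNAR2 on chromosome 21 and IFIT1 and IFIT2 on chromosome 10. The pathway counts are therefore not of independent genes. Of 4 kinase and STAT genes 2 reached 50%, with TYK2 at 100%, JAK1 at 26.8% and JAK2 at 23%. Among 18 sensors, adaptors and kinases upstream of IRFs, 7 reached 50% and 5 were fully covered, while the bodies of TLR4 and TLR7 held no xChIP H1.2 peak and that of TLR3 was covered to 19.9%. Of 20 interferon-stimulated genes, targets of the IRF9 complex, 6 reached 50%, with ISG15 at 100% and IFIT1 and IFIT2 at 0. Their local GC also differed, at 62.2% for ISG15, 41.3% for IFIT1 and 41.5% for IFIT2, and its part in the difference was not tested. Of 5 DNA-binding partners of IRF4 and IRF8, 2 reached 50%. SPI1, the gene of PU.1, was covered to 100% by xChIP H1.2, SPIB to 97.0% and BATF to 4.99%, whereas IRF8 itself was at 0. Local GC was 54.5% at SPI1, 54.7% at SPIB, 44.9% at BATF and 48.3% at IRF8, and its part here was not tested either.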

How the data were processed

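H1.2 and H1.5 were measured by xChIP-seq and xxChIP-seq in 12 immunoprecipitated samples, and 6 Input samples were not used here. As the study's methods describe, the authors mapped read pairs to hg19 by Bowtie2, retained reads with 1 genomic position, ran MUSIC with its default settings and merged the peaks of 3 replicates. They deposited chromosome, start and end of each merged peak in bp, with no score. The versions of Bowtie2 and MUSIC are not given in the sources used here. Merging offset peaks can lengthen them.

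Samples were grouped by protocol and antibody. Percent coverage was computed here over gene bodies, TSS ± 1000 bp and TSS ± 50 kb of 20098 protein-coding genes (GENCODE 44 lifted to GRCh37). Similar local GC meant within 2 percentage points in TSS ± 50 kb, and similar length within 2-fold. Named were the 8 members, genes sharing a peak over a member's TSS in xChIP H1.2, the 3 genes most like IRF7, and up to 3 genes first in each pathway list. From the pathway lists, 1 gene is not reported here. Members and lists were chosen with earlier results of these data known. The coverage step was tested on simulated data. Python 3.11.15, numpy 2.4.6, pandas 2.3.3 and matplotlib 3.10.9 were used. Alternatives changed window widths, thresholds, starts, peak lengths and matching. Keeping only peaks of at least 1000 bp could do little, because the shortest peak within 50 kb of a member's TSS was 1005 bp. It left each count of members unchanged, and those values are among the ones counted below as within 1.5 times.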

Additional observations from a re-analysis of the deposited data

How the results depend on the processing

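No paired analysis was possible because each list merges its replicates, and for the same reason no replicate could be left out. Alternatives were computed for 20 counts of members, and 113 of 132 such values lay within 1.5 times the reported count, while 19 did not. Other counts had no alternative, among them those of any peak in the body, full coverage, bodies without a peak, both protocols and TSS inside a peak. With the canonical transcript, chosen after seeing the data, promoters with an xChIP H1.2 peak fell from 5 to 3, and members with more body coverage in xxChIP H1.2 than in xxChIP H1.5 from 2 to 1. The latter was also 1 after dividing by each list's share of the genome. A promoter of TSS ± 2500 bp gave 1 member in place of 0 for each list other than xChIP H1.2, and counting any annotated transcript start gave 1 for xChIP H1.5 and xxChIP H1.5. A threshold of 25% in place of 50% of the body gave 3 members for xChIP H1.2 in place of 1, and 1 for xxChIP H1.5 in place of 0. Matching on GC and length gave 1 member above the median body coverage in xChIP H1.2, in place of 2. For coverage around the TSS above genes of similar GC, ± 100 kb gave 2 in place of 4 for xChIP H1.5. In xxChIP H1.2, a window of ± 25 kb gave 1 in place of 2, and ± 100 kb, the body extended by 50 kb and peaks with 500 bp removed from each end gave 4. Using TSS ± 50 kb in place of the body gave 7 in place of 2 for H1.5 in xChIP over xxChIP. For H1.2 over H1.5 it gave 8 in place of 4 in xChIP and 4 in place of 2 in xxChIP. The causes of these shifts were not tested. Because the merged lists carry no read numbers, depth limits cannot be given.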
